A study of Mus musculus with 12 samples.

Results

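Tumor necrosis factor (TNF) signaling and its NF-κB feedback were followed through 10 genes, which were found by their symbols among the 54833 genes of the table. They were the ligands Tnf and Tnfsf12, the receptors Tnfrsf1a, Tnfrsf1b, Tnfrsf12a and Fas, the NF-κB subunits Nfkb1 and Relb, and the inhibitors Nfkbia and Tnfaip3. All 10 were among the 21495 genes with enough counts to be tested. The RNA-seq libraries were made from the caudate putamen of wild-type male C57BL/6 mice, with 3 samples in each of 4 groups. Perihematomal tissue was taken from mice with a hemorrhage, and corresponding tissue from sham controls. Young mice (8 to 10 weeks) and aged mice (20 to 22 months) received either type IV collagenase, which produces an intracerebral hemorrhage (ICH) by digesting vessel walls, or saline as sham controls, and tissue was taken after 24 h. Each sample pooled tissue from 2 or 3 mice, so the SD and SE are those between pools, and all mice were perfused with buffered saline before dissection.

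TNF is made as a membrane protein, is released by the protease ADAM17, and binds the receptors TNFR1 (Tnfrsf1a) and TNFR2 (Tnfrsf1b). These receptors recruit adaptors and kinases that lead to the breakdown of IκBα (Nfkbia), which frees NF-κB dimers to enter the nucleus. NF-κB in turn activates the genes of its own inhibitors IκBα and A20 (Tnfaip3), which closes a negative feedback loop, while TWEAK (Tnfsf12) and its receptor Fn14 (Tnfrsf12a) also act through the alternative NF-κB route that uses RelB.

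Some libraries stood apart from the rest. The 7 choroid plexus markers summed to 4081.2 CPM (counts scaled to the normalized library size) in young ICH replicate 3, to 1559.0 in aged ICH replicate 1 and to 1978.4 in aged ICH replicate 2, against 12.6 to 493.0 in the other 9 libraries. Results for the members are therefore given with and without these 3 libraries where a call changed, an alternative chosen after seeing the data. It leaves a single aged ICH sample, whose spread was assumed to be like that of the other groups. All 8 striatal neuron markers were detected in every library, and their sum was 1457.5 to 2936.8 CPM in the sham samples and 317.0 to 1835.0 CPM after ICH, with 0 of the 8 called by edgeR and by DESeq2 in either age (1 at an unadjusted P under 0.05 in each age, Pde10a). In such bulk tissue, fewer cells of a type and less RNA per cell cannot be told apart.

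After ICH, 7 of the 10 members were higher in young mice and 6 of the 10 in aged mice, and the fold changes of all 10 were above 1 in both ages. A gene was called when its adjusted P in edgeR's quasi-likelihood test, with Benjamini-Hochberg adjustment over all genes tested, was under 0.05. Over all genes tested, 9.89% were called higher in young ICH vs. young sham and 7.0% in aged ICH vs. aged sham. All 4 receptors, Nfkb1 and Nfkbia were called in both ages, and Tnfsf12 was the seventh in young mice. The count in aged mice was 3 without aged ICH replicate 1, and without the 3 libraries high in choroid plexus markers it was 2 in aged and 6 in young mice. The median log2 fold change (log2FC) of the members was 1.02 in young mice and 0.72 in aged mice, beside 0.02 and 0.0 over all genes tested. Every ICH sample lay above every sham sample for 8 members in young mice, the 7 called and Tnf, and for 7 in aged mice, the 6 called and Relb, beside 18.5% and 17.8% of all genes. By the criterion of the study, which asks for an unadjusted P under 0.05 together with a change beyond an FC of 1.5 or 0.67, 6 members were higher in each age, beside 8.66% and 7.24% of all genes. In young mice these were the 7 called less Nfkb1, and in aged mice the 6 called with Relb in place of Nfkb1.

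**Figure D1:**
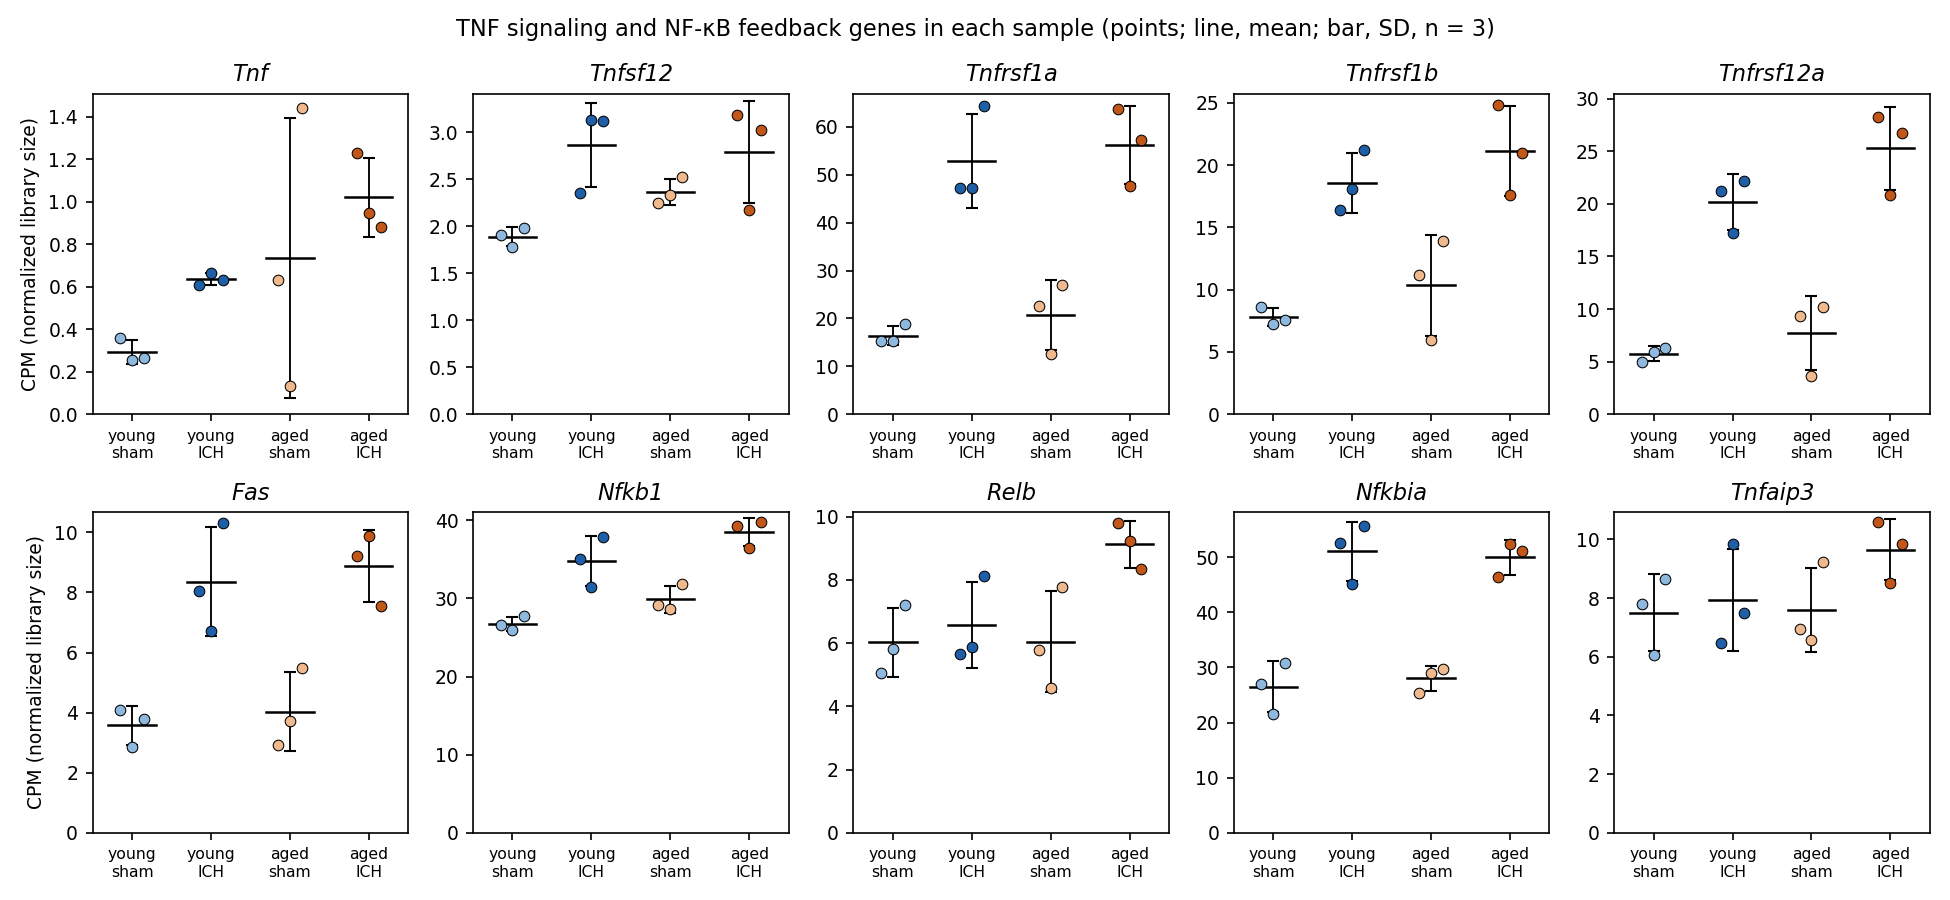
CPM of each member (vertical axes, linear and starting at 0) in the 12 samples, by group. Points are samples, lines are means and bars are SD (n = 3). In both ages, Tnfrsf1a, Tnfrsf1b, Tnfrsf12a, Fas, Nfkb1 and Nfkbia lie higher in every ICH sample than in every sham sample. Tnfaip3 overlaps in both ages, and Tnf spreads widely in aged sham mice.

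Tnfrsf12a (ENSMUSG00000023905, GRCm38 chr17:23675445-23677468, minus strand), which encodes the TWEAK receptor Fn14, had the highest fold change of the 10 members in both ages. It was at 5.0, 5.96 and 6.34 CPM in the young sham samples and at 21.2, 17.2 and 22.2 CPM in the young ICH samples. In aged mice it was at 9.33, 3.68 and 10.2 CPM after sham surgery and at 28.3, 20.8 and 26.7 CPM after ICH. Every ICH sample lay above every sham sample of its age, and the lowest value of all 12 came from aged sham replicate 2. The log2FC was 1.81 ± 0.29 (SE) in young mice, a 3.51-fold rise (adjusted P = 0.00274, edgeR), and 1.71 ± 0.29 in aged mice, a 3.26-fold rise (adjusted P = 0.00604). Without the 3 libraries high in choroid plexus markers, the log2FC in aged mice was 1.79 with an adjusted P of 0.055.

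Tnfrsf1a (ENSMUSG00000030341, chr6:125349362-125362484, plus strand) encodes TNFR1, the widely expressed receptor that carries a death domain. It stood at 15.2, 15.3 and 18.8 CPM in young sham mice and at 47.2, 47.3 and 64.3 CPM in young ICH mice. The aged sham samples held 22.7, 12.6 and 26.9 CPM and the aged ICH samples 63.8, 47.7 and 57.3 CPM. The lowest ICH sample of each age was above the highest sham sample of all. Its log2FC was 1.69 ± 0.23 in young mice (3.22-fold, adjusted P = 0.00176) and 1.44 ± 0.23 in aged mice (2.71-fold, adjusted P = 0.00536), and it was called in all 18 alternative fits in each age, between 1.52 and 1.8 in young and between 1.18 and 1.67 in aged mice.

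Tnfrsf1b (ENSMUSG00000028599, chr4:145213463-145246870, minus strand) encodes TNFR2, which lacks a death domain and is found mainly on immune, glial and endothelial cells. Its values were 8.59, 7.23 and 7.56 CPM in young sham and 16.4, 18.1 and 21.2 CPM in young ICH samples. Those of aged mice were 11.2, 5.93 and 13.9 CPM after sham surgery and 24.8, 17.6 and 21.0 CPM after ICH. No ICH sample overlapped with the sham samples of its age, and aged sham replicate 3 came nearest to the ICH range. The rise was 2.38-fold in young mice (log2FC 1.25 ± 0.25, adjusted P = 0.00621) and 2.04-fold in aged mice (1.03 ± 0.24, adjusted P = 0.02). In aged mice the call was kept in 13 of 18 alternative fits, and was lost without aged ICH replicate 1 (adjusted P = 0.0876), without aged ICH replicate 3 (0.0558), without aged sham replicate 1 (0.0553) and without the 3 libraries high in choroid plexus markers (0.134), as well as with only the 2 groups in the fit (0.0551). The log2FC in these 5 fits was 0.9 to 1.09, and 1.02 without the 3 libraries.

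Fas (ENSMUSG00000024778, chr19:34290666-34327772, plus strand), the death receptor for Fas ligand, was at 4.09, 2.85 and 3.79 CPM in young sham mice and at 8.04, 6.72 and 10.3 CPM in young ICH mice. Aged sham samples gave 2.91, 3.71 and 5.48 CPM and aged ICH samples 9.2, 9.89 and 7.54 CPM. The groups again did not overlap within an age. It rose 2.33-fold in young mice (log2FC 1.22 ± 0.24, adjusted P = 0.00603) and 2.19-fold in aged mice (1.13 ± 0.24, adjusted P = 0.0127). In aged mice the adjusted P was 0.0533 without aged ICH replicate 1 (log2FC 1.11) and 0.155 without the 3 libraries high in choroid plexus markers (0.91).

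The 4 receptors had a wide spread in aged sham mice. Their coefficients of variation there were 32.6% to 45.8%, against 9.12% to 18.0% in young sham mice. Aged sham replicate 3 was the highest of its group for all 4 receptors, and replicate 2 the lowest for 3 of them, Fas being lowest in replicate 1. Among the aged sham samples, the same replicate 3 also had the highest sums of the neutrophil (26.4 CPM) and the monocyte and macrophage markers (186.0 CPM). Its sums of the astrocyte (6552.3 CPM), endothelial (381.0 CPM) and choroid plexus markers (87.4 CPM) were the highest as well. It had the lowest sums of the striatal neuron (1457.5 CPM) and T cell markers (26.3 CPM). For the microglia and red blood cell markers it lay between the other aged sham samples. The part of these cells in the receptor values was not tested.

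Of the ligands, Tnf (ENSMUSG00000024401, chr17:35199381-35202007, minus strand), the founding cytokine of the family, had the fewest reads of all members. Its raw counts were 13, 8 and 8 in young sham and 19, 4 and 48 in aged sham mice, and 21, 20 and 20 in young ICH and 44, 28 and 28 in aged ICH mice. The 3 young ICH samples, at 0.609 to 0.666 CPM, were above the 3 young sham samples, at 0.254 to 0.359 CPM, but the aged sham samples spanned 0.135 to 1.44 CPM and so held both the lowest and the highest value of all 12 samples. The log2FC was 1.10 ± 0.59 in young mice (95% interval −0.19 to 2.39, adjusted P = 0.217) and 0.46 ± 0.51 in aged mice (−0.67 to 1.58, adjusted P = 0.601), neither of which passed the test. With only the 2 young groups in the fit its adjusted P was 0.0482, and the log2FC in aged mice was −0.03 without aged sham replicate 2 and 1.40 without aged sham replicate 3, the samples with 4 and 48 counts.

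Tnfsf12 (ENSMUSG00000097328, chr11:69686250-69695849, minus strand), which encodes TWEAK, was at 1.91, 1.78 and 1.98 CPM in young sham and at 2.35, 3.13 and 3.12 CPM in young ICH samples. In aged mice the sham samples, at 2.25, 2.33 and 2.52 CPM, overlapped with the ICH samples, at 3.18, 2.17 and 3.02 CPM. Its log2FC of 0.60 ± 0.18 passed the test in young mice (1.52-fold, adjusted P = 0.0388), whereas that of 0.24 ± 0.18 in aged mice did not (adjusted P = 0.414). The call in young mice was kept in 5 of 18 alternative fits, with adjusted P values of 0.025 to 0.127. Without the 3 libraries high in choroid plexus markers, of which 1 is a young ICH library, the log2FC was 0.53 with an adjusted P of 0.11. This gene lies wholly inside the readthrough gene Tnfsfm13 on the same strand and overlaps the antisense gene Tnfsf13os, so that its 56 to 114 counts are uncertain to the extent that reads were shared.

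Nfkb1 (ENSMUSG00000028163, chr3:135584655-135691547, minus strand), which encodes the p105 precursor of the NF-κB subunit p50, was at 26.6, 25.9 and 27.7 CPM in young sham samples and at 35.1, 31.4 and 37.8 CPM in young ICH samples. In aged mice it went from 29.1, 28.7 and 31.9 CPM to 39.3, 36.4 and 39.8 CPM. These were the smallest of the called fold changes of both ages, 1.30-fold in young mice (log2FC 0.38 ± 0.08, adjusted P = 0.00729) and 1.29-fold in aged mice (0.37 ± 0.08, adjusted P = 0.0131), with low spread between samples and no overlap within an age. Both are under the FC of 1.5 of the study's criterion. In aged mice the call was kept in 13 of 18 alternative fits, and the adjusted P was 0.0515 to 0.0599 when replicate 1 or 3 of aged ICH or replicate 1 or 2 of aged sham was left out, and 0.0728 without the 3 libraries high in choroid plexus markers. The log2FC was 0.34 to 0.35 in the former fits and 0.42 in the latter.

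Relb (ENSMUSG00000002983, chr7:19606217-19629438, minus strand), the transcription-activating subunit of the alternative NF-κB route, showed 5.06, 5.81 and 7.19 CPM in young sham samples against 5.66, 5.89 and 8.13 CPM in young ICH samples. The aged sham samples were at 5.79, 4.59 and 7.76 CPM and the aged ICH samples at 9.81, 9.24 and 8.33 CPM. Young sham and young ICH samples overlapped, and all aged ICH samples were above all aged sham samples. The log2FC was 0.13 ± 0.21 in young mice (95% interval −0.33 to 0.58, adjusted P = 0.714) and 0.59 ± 0.21 in aged mice (0.14 to 1.04, adjusted P = 0.0813). The latter was called by DESeq2 (adjusted P = 0.0364) and by edgeR without aged sham replicate 3 (log2FC 0.81, adjusted P = 0.0347). The change in aged mice also met the criterion of the study (1.51-fold, edgeR unadjusted P = 0.0145), and that in young mice did not.

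Nfkbia (ENSMUSG00000021025, chr12:55489410-55492647, minus strand), which encodes the inhibitor IκBα, had 27.0, 21.6 and 30.8 CPM in young sham mice and 52.5, 45.1 and 55.6 CPM in young ICH mice. In aged mice it had 25.4, 28.9 and 29.7 CPM after sham surgery and 46.4, 52.4 and 51.2 CPM after ICH. The 6 sham samples of both ages, at 21.6 to 30.8 CPM, did not overlap with the 6 ICH samples of both ages, at 45.1 to 55.6 CPM. It rose 1.93-fold in young mice (log2FC 0.95 ± 0.12, adjusted P = 0.00141, the smallest of the 10 members) and 1.79-fold in aged mice (0.84 ± 0.12, adjusted P = 0.00454). It was called in all 18 alternative fits in each age, as was Tnfrsf1a, and these were the only members called in aged mice without the 3 libraries high in choroid plexus markers.

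Tnfaip3 (ENSMUSG00000019850, chr10:19000910-19015657, minus strand), which encodes the ubiquitin-editing inhibitor A20, was not called in either age. It was at 7.79, 6.06 and 8.65 CPM in young sham samples and at 6.47, 9.85 and 7.5 CPM in young ICH samples. In aged mice the sham samples were at 6.95, 6.57 and 9.22 CPM and the ICH samples at 10.6, 8.53 and 9.84 CPM. The groups overlapped in both ages. The log2FC was 0.08 ± 0.19 in young mice (95% interval −0.34 to 0.50, adjusted P = 0.803) and 0.35 ± 0.19 in aged mice (−0.07 to 0.76, adjusted P = 0.254), and in 0 of 18 alternative fits was it called in either age.

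The promoters of both inhibitors are shown because they share a κB-like motif, while Nfkbia was called in both ages and Tnfaip3 in neither. That one passed the test and the other did not is no test of a difference between them. The 250 bases upstream of the RefSeq start were read for the 7 members with an entry (8 windows, GRCm38.p6), and both strands were searched for the motif GGG, any 2 bases and TTTCC (as the reverse complement, GGAAA, any 2 bases and CCC), which was present in 1.41% of 32851 such windows. It was found in Nfkbia and in 1 of the windows of Tnfaip3, in each case as the reverse complement, and not in the windows of Tnf, Tnfrsf1a, Tnfrsf1b, Tnfrsf12a and Fas. The promoter of Tnfrsf12a, the member with the highest fold change, is given for comparison. Each is written 5′ to 3′ on the strand of the gene, with the match in capitals:
Nfkbia, chr12:55492648-55492897, minus strand: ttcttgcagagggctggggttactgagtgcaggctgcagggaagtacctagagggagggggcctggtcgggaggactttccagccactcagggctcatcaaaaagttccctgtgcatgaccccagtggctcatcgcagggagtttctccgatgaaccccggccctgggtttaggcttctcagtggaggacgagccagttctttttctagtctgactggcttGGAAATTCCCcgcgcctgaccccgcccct
Tnfaip3, chr10:19015411-19015660, minus strand: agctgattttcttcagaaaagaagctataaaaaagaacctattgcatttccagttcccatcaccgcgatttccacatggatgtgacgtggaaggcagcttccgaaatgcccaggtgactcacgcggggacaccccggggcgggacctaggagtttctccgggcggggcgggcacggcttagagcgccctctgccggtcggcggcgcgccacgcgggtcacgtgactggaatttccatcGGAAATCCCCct
Tnfrsf12a, chr17:23677450-23677699, minus strand: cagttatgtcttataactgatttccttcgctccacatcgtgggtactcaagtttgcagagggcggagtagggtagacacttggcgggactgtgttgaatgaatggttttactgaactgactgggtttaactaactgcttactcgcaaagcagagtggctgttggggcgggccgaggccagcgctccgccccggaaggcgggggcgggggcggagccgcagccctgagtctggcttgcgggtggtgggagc
The match lies 29 to 20 bases upstream of the start in Nfkbia and 12 to 3 bases upstream in Tnfaip3. A match of letters is a description of the sequence and says nothing on whether a factor binds there, and its absence says only that these letters are not in the window.

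**Figure D2:**
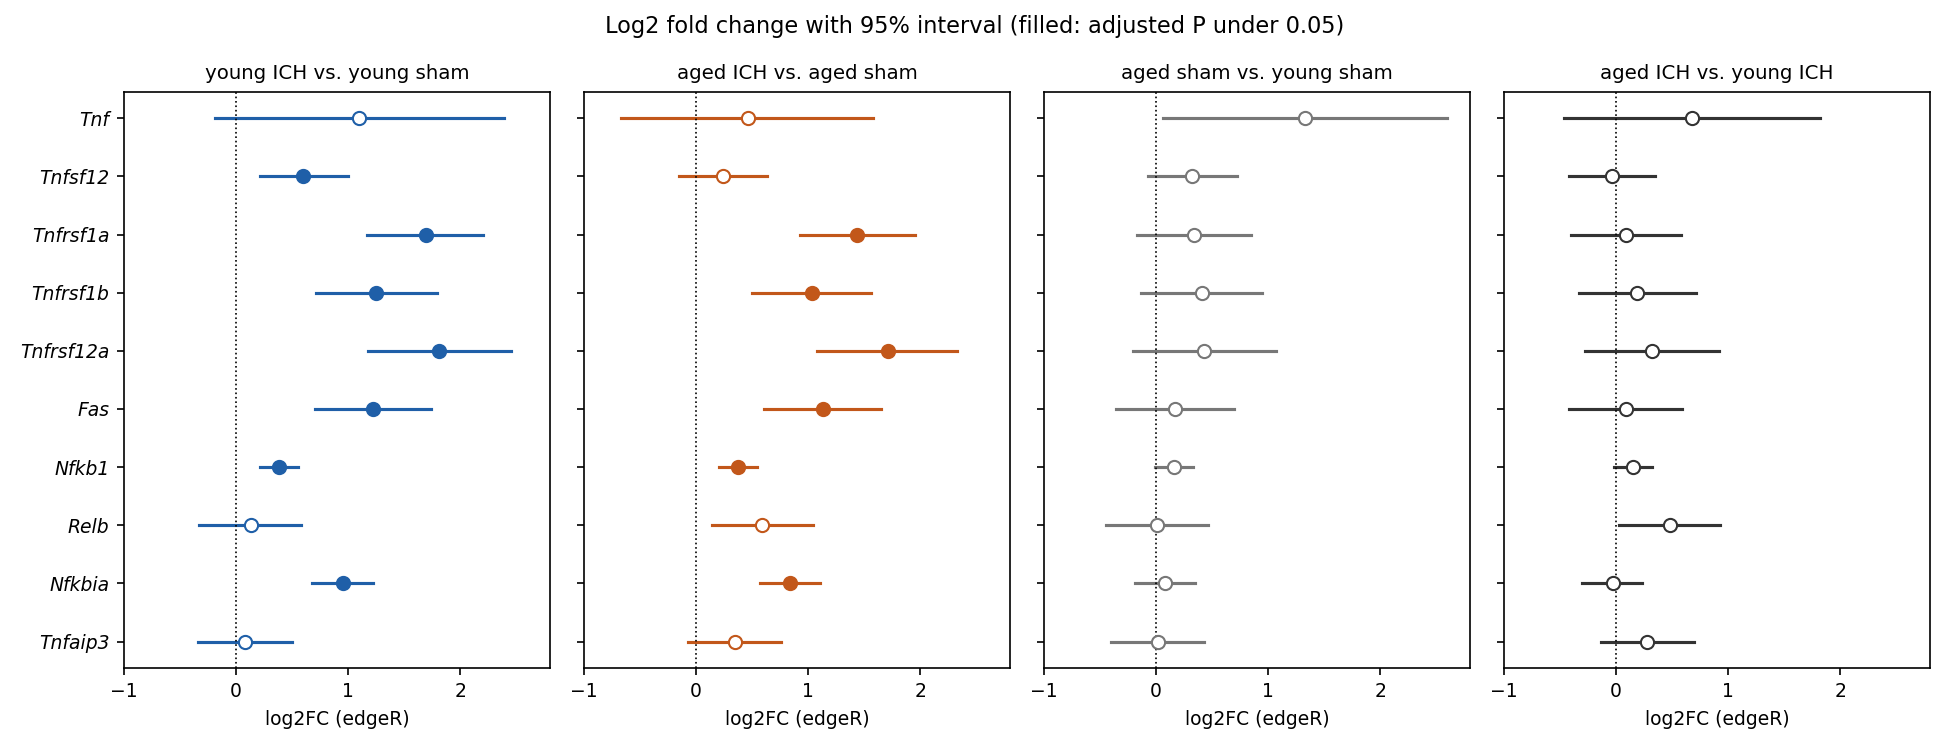
Log2FC of each member (horizontal axis, edgeR) with its 95% interval in the 4 pairwise comparisons, filled where the adjusted P was under 0.05. All filled points lie in the panels of ICH vs. sham, between 0.37 and 1.81, and none in the panels of aged vs. young mice.

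The effect of age was compared in the sham groups and in the ICH groups. In aged sham vs. young sham, 0 of the 10 members were called by edgeR and 0 by DESeq2, beside 0.102% and 1.16% of all genes. At an unadjusted P under 0.05 there was 1 member, beside 12.3% of all genes. It was Tnf, with a log2FC of 1.33 ± 0.58 (edgeR adjusted P = 0.387), whose samples overlapped since aged sham replicate 2 was below all young sham samples. The value was 0.38 without aged sham replicate 3, the highest sample, and 1.81 without replicate 2. Tnf was also the only member to meet the criterion of the study here, which 2.82% of all genes met with a higher value. Tnfsf12 and Nfkb1 were higher in all aged sham samples than in all young sham samples, by 0.32 ± 0.18 (adjusted P = 0.494) and 0.16 ± 0.08 (adjusted P = 0.436) on the log2 scale, beside 9.81% of all genes with such an order. Of the 8 tested neutrophil markers, 7 were at an unadjusted P under 0.05 in this comparison and 0 at an adjusted P under 0.05 (5 by DESeq2, chosen with their values seen: S100a9, Ngp, Ltf, Retnlg and Mmp8).

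In aged ICH vs. young ICH, 0 of the 10 members were called by edgeR and 0 by DESeq2, beside 0.0558% and 0.856% of all genes, and 1 was at an unadjusted P under 0.05, beside 9.54%. This was Relb, at 8.33 to 9.81 CPM in aged ICH and 5.66 to 8.13 CPM in young ICH samples, with a log2FC of 0.48 ± 0.21 (95% interval 0.03 to 0.93, adjusted P = 0.499). Tnf also lay higher in all aged ICH samples (0.88 to 1.23 CPM) than in all young ICH samples, with a log2FC of 0.68 ± 0.52 (adjusted P = 0.716). Such an order was seen in 6.9% of all genes. The log2FC of the other 8 members ranged from −0.04 for Tnfsf12 to 0.32 for Tnfrsf12a, and the intervals of these 8 lay within −0.42 and 0.92.

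Whether the response to ICH differed between ages was tested as an interaction, the log2FC of aged mice less that of the young. Of the members, 0 were called by edgeR and 0 by DESeq2, beside 0.0% and 0.00251% of all genes, and 0 had an unadjusted P under 0.05, beside 2.82%. The differences ran from −0.64 (95% interval −2.35 to 1.06) for Tnf to 0.47 (−0.17 to 1.11) for Relb. For Nfkbia the difference was −0.11 (−0.49 to 0.27) and for Nfkb1 −0.01 (−0.25 to 0.23), the narrowest intervals of the 10. That Tnfsf12 passed the threshold in young mice alone therefore does not show a difference between ages (−0.36, interval −0.92 to 0.19), and these comparisons share samples with those above.

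Levels of different genes were compared as FPKM, the deposited value per transcript length. Nfkbia had the highest level of the 10 members in every group, at 15.7 ± 2.81 FPKM (SD, n = 3) in young and 17.2 ± 1.58 in aged sham mice, and at 32.3 ± 3.85 in young and 32.2 ± 2.09 in aged ICH mice. Tnfrsf1a came next, at 6.08 ± 0.798, 7.91 ± 2.84, 20.8 ± 4.19 and 22.5 ± 3.18 FPKM in the same order of groups. Tnfrsf12a followed in every group, at 2.86 ± 0.346, 3.95 ± 1.82, 10.7 ± 1.53 and 13.5 ± 2.08 FPKM. The samples of these 3 genes did not overlap with each other except for Tnfrsf1a and Tnfrsf12a in aged sham mice.

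Below them the order changed with ICH. In young sham mice, Nfkb1 (2.13 FPKM), Tnfrsf1b (1.96), Fas (1.9), Relb (1.48), Tnfsf12 (1.19) and Tnfaip3 (0.994) followed each other with overlapping samples at every step. In young ICH mice, Tnfrsf1b (4.95 FPKM) and Fas (4.73) overlapped with each other and both stood above Nfkb1 (2.94) without overlap, and Tnfsf12 (1.93) overlapped with Relb (1.72). In aged sham mice all steps from Tnfrsf1a down to Tnfsf12 overlapped. In aged ICH mice Tnfrsf1b (5.73 FPKM) and Fas (5.11) again overlapped, followed without overlap by Nfkb1 (3.31), Relb (2.43) and Tnfsf12 (1.9), the last overlapping with Tnfaip3 (1.38). Tnf had the lowest level in every group, at 0.171 and 0.444 FPKM in young and aged sham mice and 0.395 and 0.643 FPKM in young and aged ICH mice, and its samples did not overlap with those of Tnfaip3, the gene above it.

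Ratios of FPKM within a sample were formed for pairs of members that act together. The ratio of Tnfrsf1a to Tnfrsf1b was 2.61, 3.11 and 3.67 in young sham and 3.0, 3.14 and 2.84 in aged sham samples, and 4.25, 3.86 and 4.47 in young ICH and 3.79, 3.99 and 4.03 in aged ICH samples. The receptor Tnfrsf12a stood to its ligand Tnfsf12 as 2.40 ± 0.303 (SD, n = 3) in young and 2.55 ± 1.14 in aged sham mice, and as 5.66 ± 1.39 in young and 7.15 ± 0.331 in aged ICH mice. Nfkbia relative to Nfkb1 was 7.38 ± 1.05 in young and 7.02 ± 0.51 in aged sham mice, and 11.0 ± 0.221 in young and 9.75 ± 0.97 in aged ICH mice. All 3 ratios were higher in every ICH sample than in every sham sample of the same age, in both ages.

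The ratio of the inhibitors, Nfkbia to Tnfaip3, was 15.5, 16.0 and 16.0 in young sham samples and 36.4, 20.5 and 33.3 in young ICH samples. In aged mice it was 16.4, 19.7 and 14.5 after sham surgery and 19.7, 27.6 and 23.4 after ICH, and the groups overlapped. The exact two-sided permutation test gave 0.1, the smallest P that 3 against 3 samples allow, for each ratio without overlap and 0.2 for Nfkbia to Tnfaip3 in aged mice. After Benjamini-Hochberg adjustment over 16 comparisons of ratios these exact permutation values were 0.229 and 0.356, so that none could pass 0.05. Between ages the exact permutation P was 0.2 to 1.0.

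**Figure D3:**
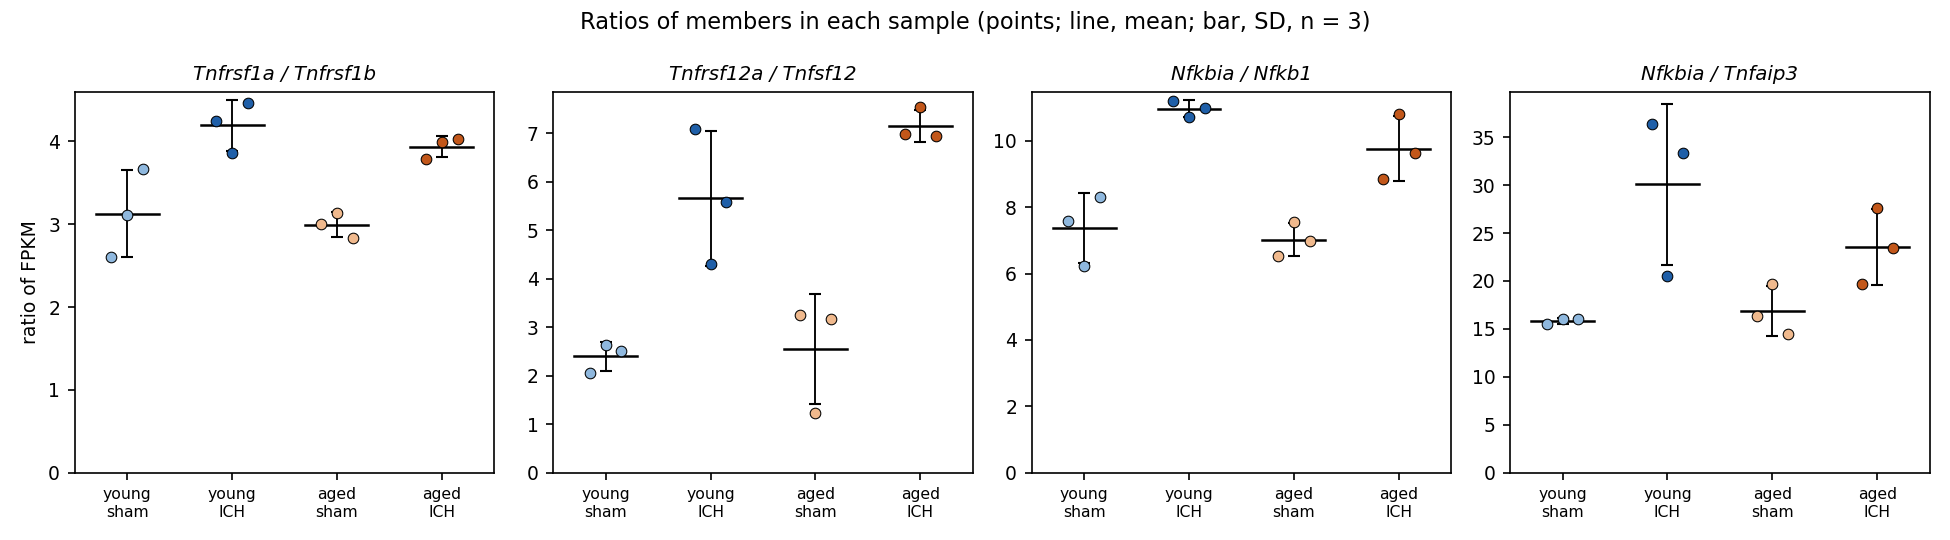
Ratios of FPKM of 4 pairs of members in each sample (vertical axes, linear and starting at 0), by group. Points are samples, lines are means and bars are SD (n = 3). The ICH samples lie above the sham samples of their age in each panel, except for Nfkbia / Tnfaip3 in aged mice, where the groups overlap.

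For each member called after ICH, the 3 genes with the most similar profile were found, by the mean absolute difference of log2 CPM, centred on each gene's mean, over the 12 samples. Those of Tnfrsf1a were S100a11 (0.095), Anxa2 (0.097) and Hspb6 (0.104). Those of Tnfrsf1b were Rab32 (0.083), C3ar1 (0.1) and Tlr1 (0.1), and those of Tnfrsf12a were Ms4a6d (0.112), Gm21188 (0.135) and Glipr2 (0.137). Fas was nearest to Lrg1 (0.135), Rhoc (0.14) and Ltbr (0.147), the last being the lymphotoxin β receptor of the same family. Nfkbia was nearest to Tead4 (0.093), Nuak2 (0.103) and Ampd3 (0.116), Nfkb1 to H3f3b (0.039), Rps4x (0.043) and Rps24 (0.048), and Tnfsf12 to Cyp4v3 (0.068), mt-Atp6 (0.08) and Arap3 (0.084).

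The members were then set among 108 other genes of the pathway, of which 99 could be tested. In young ICH vs. young sham 41 of these were higher and 1 lower, and in aged ICH vs. aged sham 35 were called, all of them higher, beside 9.89% and 7.0% of all genes called higher. Their median log2FC was 0.4 and 0.42. The counts fell to 21 in young and 7 in aged mice without the 3 libraries high in choroid plexus markers, to 25 without young ICH replicate 3 and 22 without young sham replicate 2 in young mice, and in aged mice to 12, 22, 16 and 21 without aged ICH replicate 1, aged ICH replicate 3, aged sham replicate 1 and aged sham replicate 2.

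**Figure D4:**
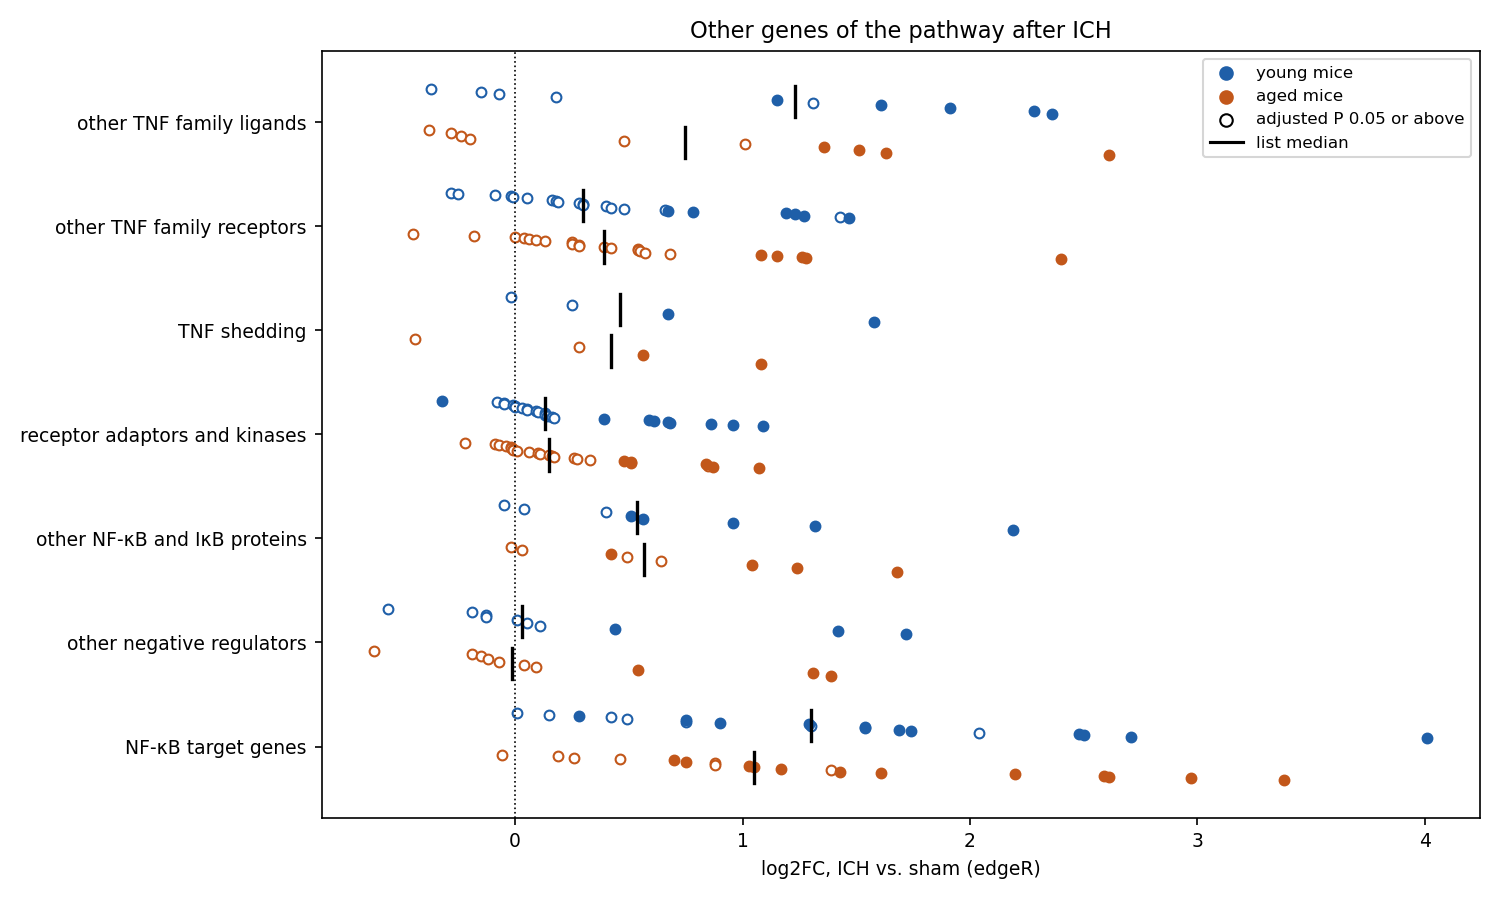
Log2FC of ICH vs. sham (horizontal axis, edgeR) for the other pathway genes tested, by list, in young and aged mice. Each point is a gene, filled where the adjusted P was under 0.05, and the bar is the median of the list, which is highest for the NF-κB target genes (1.3 in young and 1.05 in aged mice), followed by the other ligands (1.23 and 0.74).

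Of 10 other TNF family ligands tested, 5 were higher in young mice and 4 in aged mice, while DESeq2 called 5 and 2. Tnfsf14, which encodes LIGHT, rose from 0.091 ± 0.0245 to 0.485 ± 0.087 CPM in young mice (log2FC 2.36) and from 0.0942 ± 0.0582 to 0.604 ± 0.0542 CPM in aged mice (2.61, SD and n = 3 throughout). Tnfsf11, the gene of RANKL, had log2FC of 2.28 and 1.51, Tnfsf9, of the 4-1BB ligand, 1.15 and 1.36, and Tnfsf8, of the CD30 ligand, 1.91 and 1.63. Ltb, of lymphotoxin β, was called in young mice (1.61). Some of these changes rest on few reads. Raw counts in young and aged sham samples were 2 to 4 and 1 to 5 for Tnfsf14. They were 3 to 5 and 7 to 8 for Tnfsf11, and 6 to 12 and 2 to 13 for Ltb. Tnfsf10, the gene of TRAIL, had lower means after ICH in both ages and was called in neither. It went from 3.13 ± 0.564 to 2.42 ± 0.199 CPM in young mice, and from 4.44 ± 0.205 to 3.4 ± 1.05 CPM in aged mice. The means of Tnfsf13b and Eda were also lower after ICH in both ages, uncalled. A further 6 ligands, among them Lta, had too few counts to be tested.

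Of 23 other family receptors, 6 were higher in young mice, namely Ltbr (log2FC 1.27), the TRAIL receptor Tnfrsf10b (1.47), the decoy receptors Tnfrsf23 (1.19) and Tnfrsf22 (0.78), Eda2r (1.23) and Tnfrsf9 (0.67). In aged mice 5 were higher, Ltbr (1.08), Tnfrsf10b (1.26), Tnfrsf23 (1.28), the costimulatory receptor Cd40 (1.15) and Tnfrsf26 (2.4). Tnfrsf22, Tnfrsf23 and Tnfrsf26 are related in sequence, and reads could be shared among them. Tnfrsf26 had 0 to 9 raw counts in aged sham and 21 to 37 in aged ICH samples. The interaction for Cd40 was 1.17 ± 0.42 (adjusted P = 1.0).

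Among the 4 genes for the release of TNF, both iRhom genes, whose products bring ADAM17 to the cell surface, were higher. Rhbdf2 went from 2.09 ± 0.14 to 6.29 ± 2.59 CPM in young (log2FC 1.58, adjusted P = 0.0039) and from 3.25 ± 0.873 to 6.88 ± 0.892 CPM in aged mice (1.08, adjusted P = 0.025). Rhbdf1 had log2FC of 0.67 and 0.56. Adam17 (0.25 and 0.28, adjusted P = 0.114 and 0.0948) and its inhibitor Timp3 did not pass the test.

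Of 25 receptor adaptors and kinases, 8 were higher and 1 lower in young mice, and 5 were higher in aged mice. Called in both ages were Ripk1, the kinase of the TNFR1 complex (0.68 and 0.84), Casp8, the initiator caspase of the death receptors (0.96 and 1.07), its inhibitor Cflar (0.67 and 0.51), the ubiquitin ligase gene Birc3 (0.86 and 0.87) and Map3k14, the NF-κB inducing kinase of the alternative route (0.61 and 0.48). Traf1 (1.09), Traf2 (0.39) and Fadd (0.59) were called in young mice. The 1 lower gene was Tab3, a partner of the kinase TAK1, at −0.32 (adjusted P = 0.0325) in young mice and −0.22 (adjusted P = 0.151) in aged mice.

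Among the 8 other NF-κB and IκB genes, Nfkbiz (1.32 in young and 1.24 in aged mice), Bcl3 (2.19 and 1.68), Nfkb2 (0.96 and 1.04) and Rela (0.51 and 0.42) were higher in both ages, and Nfkbid (0.56) in young mice. Nfkbiz and Bcl3 encode atypical IκB proteins of the nucleus, Nfkb2 the p100 precursor of the alternative route and Rela the main activating subunit p65. Of 10 other negative regulators, 3 were higher in young and 3 in aged mice, in each case Zfp36 (1.72 and 1.39), which promotes decay of Tnf mRNA, Zc3h12a (1.42 and 1.31), an RNase that degrades inflammatory mRNA, and Tnip2 (0.44 and 0.54), a partner of A20. DESeq2 called the same 3 and, as lower, 3 more in young mice and 2 more in aged mice. These were Cyld, a deubiquitinase that restrains NF-κB, at −0.56 and −0.62 (edgeR adjusted P = 0.0888 and 0.0782, DESeq2 adjusted P = 0.0351 and 0.0211), in young mice also the A20 partners Tax1bp1 at −0.13 (0.0675 and, by DESeq2, 0.018) and Rnf11 at −0.19 (0.0757 and 0.0405), and in aged mice the ubiquitin ligase gene Itch at −0.19 (0.0572 and 0.027). Cyld and Rnf11 were chosen with their values seen.

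Of 19 NF-κB target genes, 12 were called in each age, all of them higher. Mmp9, a gelatinase gene, had log2FC of 1.54 in young and 1.03 in aged mice, Ier3 1.29 and 1.05, Csf1, a growth factor gene of macrophages, 0.9 and 0.7, and the cytokine gene Il6 2.5 and 2.97. Gadd45b rose from 10.4 ± 1.55 to 17.5 ± 1.43 CPM in young mice (0.75) and from 12.9 ± 1.9 to 29.0 ± 4.86 CPM in aged mice (1.17). In each age 7 targets were not called. In young mice Sod2 was at 226.0 ± 2.99 CPM after sham surgery and at 229.0 ± 4.52 CPM after ICH. In aged mice it was at 230.0 ± 5.64 and 221.0 ± 13.1 CPM. Its samples, and those of Cd83, overlapped between ICH and sham in both ages. Between aged ICH and young ICH mice 0 of the 99 pathway genes were called by edgeR (14 at an unadjusted P under 0.05, beside 9.54% of all genes), and 1 was called by DESeq2, Gadd45b (log2FC 0.73 ± 0.15, edgeR adjusted P = 0.15, DESeq2 adjusted P = 0.00235). Between aged sham and young sham mice 0 were called by edgeR (13 at an unadjusted P under 0.05, beside 12.3% of all genes) and 1 by DESeq2, Tnfrsf25, at −0.75 ± 0.21 (edgeR adjusted P = 0.218, DESeq2 adjusted P = 0.0428).

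Markers of several cell types also differed between ICH and sham samples. The 10 monocyte and macrophage markers summed to 120.0 to 137.0 CPM in young and 99.2 to 186.0 in aged sham samples, and to 269.0 to 333.0 in young and 263.0 to 345.0 in aged ICH samples, and 6 of the 10 were called higher in young and 5 in aged mice (Ccr2, Chil3, Fn1, F13a1 and Arg1 in both, and Mrc1 in young mice, all named with their values seen). The 12 neutrophil markers summed to 10.2 to 12.7, 14.7 to 26.4, 19.8 to 36.3 and 37.2 to 53.2 CPM in the same order of groups, and of the 8 tested 6 were higher in young and 5 in aged mice (S100a8, S100a9, Cxcr2, Csf3r and Retnlg in both, Mmp8 in young mice). Of the defining neutrophil genes, Ly6g was at 0 in 4 libraries and did not exceed 4 counts, and Elane was at 0 in 8. The 10 microglia markers summed to 355.0 to 441.0 CPM in all 12 samples, overlapping between all groups, with P2ry12 and Siglech lower in both ages and Fcrls higher in aged mice. The endothelial markers summed to 300.0 to 362.0 CPM in young and 333.0 to 381.0 in aged sham samples, and to 417.0 to 434.0 in young and 380.0 to 461.0 in aged ICH samples, with 5 of 8 higher in young mice (Cldn5, Pecam1, Cdh5, Flt1 and Ly6c1) and 3 in aged mice (Cldn5, Pecam1 and Cdh5). Of 8 astrocyte markers, Gfap (log2FC 1.33 in young and 1.13 in aged mice) and Aldh1l1 (0.68 and 0.54) were higher in both ages, Aqp4 (0.61) was higher in young mice and Gja1 (−0.51) was lower in aged mice. Slc1a2 was at −0.3 and −0.34, called by DESeq2 alone (adjusted P = 0.031 and 0.0169). In the monocyte and macrophage list only Cd163 was below 0, at −0.29 and −0.75, uncalled. Of the endothelial markers, Slco1a4 was at −0.18 and −0.23, uncalled. Tek and Kdr were at −0.22 and −0.31 in aged mice, and at 0.11 and 0.2 in young mice, also uncalled.

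The 5 red blood cell markers summed to 5.2 to 22.4 CPM in young and 27.8 to 39.5 in aged sham samples, and to 29.0 to 121.0 in young and 24.3 to 82.0 in aged ICH samples. Of these, Hba-a1, Hba-a2 and Hbb-bs were called higher in young mice and 0 in aged mice (0 by DESeq2, 1 at an unadjusted P under 0.05). The T cell markers summed to 28.6 to 42.7 CPM in young and 26.3 to 35.9 in aged sham samples, and to 16.7 to 32.7 in young and 11.2 to 25.6 in aged ICH samples, lower in every aged ICH sample than in every aged sham sample and overlapping in young mice. Of the 7 tested, edgeR called Cd3e higher in young mice (2.1, adjusted P = 0.0473), where DESeq2 called 2, Cd3e and Lck. In aged mice 0 were called (0 by DESeq2, 1 at an unadjusted P under 0.05). The tested markers went in both directions. Cd4 was at −1.06 and −1.27 in young and aged mice (edgeR adjusted P = 0.21 and 0.161), and Trbc2 at −0.55 and −0.3. Above 0 in both ages were Cd3e, Cd3g (2.05 and 1.68), Cd8a (1.92 and 0.2), Trac (0.9 and 0.95) and Lck (1.14 and 0.53). The median log2FC of the list was 1.14 and 0.53. The part of all these cells in the values of the members was not tested.

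**Figure D5:**
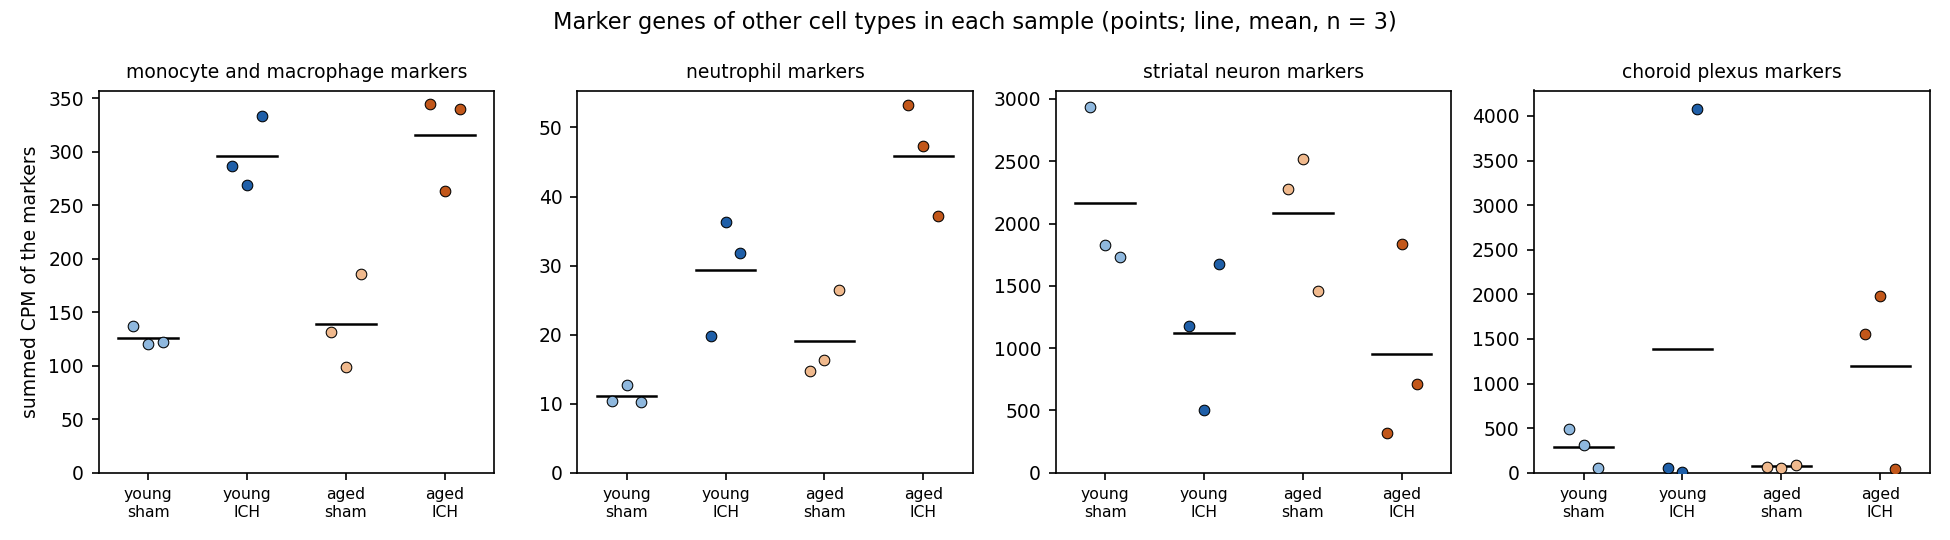
Summed CPM of the marker genes of 4 cell types in each sample (vertical axes, linear and starting at 0), by group. Points are samples and lines are means (n = 3). Monocyte and macrophage and neutrophil sums lie higher in every ICH sample than in every sham sample of the same age, and choroid plexus markers are above 1000 CPM in 3 ICH libraries.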

How the data were processed

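RNA-seq of 12 samples was analysed, 3 for each age (young, aged) and surgery (sham, ICH), as named in the labels. The authors aligned paired reads to GRCm38.p6 with Hisat2 and obtained raw counts per gene with FeatureCounts. They deposited these counts and FPKM for 54833 genes. The strand setting and the treatment of reads with several alignments are not given in the sources used here, so overlapping and antisense genes may share reads. Depth was 28410896 to 37785160 counts per sample. The deposited counts were tested with edgeR 4.0.16 (quasi-likelihood test, TMM, limma 3.58.1, R 4.3.3), with all 12 samples and 4 groups in one fit, over 21495 genes that passed filterByExpr at a minimum count of 10, with Benjamini-Hochberg adjustment. The SE of a log2FC is its size divided by the square root of F. The deposited FPKM served only for levels between genes and for ratios. The script was tested on simulated data.

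Members and lists were chosen with earlier results of these data known. Named were all 10 members, from each pathway list the 4 genes with the smallest P in each ICH vs. sham comparison and all genes of counts of 5 or fewer, and the 3 genes most similar to each called member; other genes are named after their values were seen. Alternatives were DESeq2 1.42.0, RLE normalization, no filter, only the 2 groups compared, a replicate block, the criterion of the study, leaving out each sample, and, chosen after seeing the data, leaving out 3 libraries with choroid plexus sums above 1000 CPM. Gene positions came from GENCODE on GRCm38 and promoters from RefSeq.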

Additional observations from a re-analysis of the deposited data

How the results depend on the processing

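The members called in young ICH vs. young sham numbered 7 and under the alternatives 6 to 7, with Nfkb1 lost by the criterion of the study and Tnfsf12 in 13 of 18 fits, among them that of only the 2 groups, in which Tnf was called. By the criterion of the study, Nfkb1 was lost in aged mice too, and Relb was gained there. In aged ICH vs. aged sham 6 were called, 3 to 7 when 1 sample was left out, and 2 without the 3 libraries high in choroid plexus markers, where aged ICH keeps a single sample. The other pathway genes called went from 42 to 22 to 42 in young mice and from 35 to 12 to 38 in aged mice when 1 sample was left out, and to 21 and 7 without the 3 libraries. In aged sham vs. young sham, where 0 were called, DESeq2 called 1 and the criterion of the study 8 (and 1 member, Tnf). In aged ICH vs. young ICH, DESeq2 and the fit without a filter called 1, Gadd45b, and the criterion of the study 4 (Tnfsf13b, Tnfrsf8, Il6 and Gadd45b), and in the interaction this criterion called 1, Cd40. The cause was not tested.

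The log2FC of each member in each comparison was estimated again under each alternative. Of these repeated estimates, 38 changed sign, all of them uncalled. Another 26 lost a call, 3 gained one and 823 kept sign and call. Without the 3 libraries, Relb was at −0.06 in young ICH vs. young sham, Tnfsf12 at 0.14 and Nfkbia at 0.07 in aged ICH vs. young ICH, and Tnfrsf12a at 0.05 and Nfkb1 at 0.11 in the interaction. When 1 sample was left out, the range of log2FC was, in young ICH vs. young sham, Relb −0.06 to 0.27 and Tnfaip3 −0.10 to 0.21, and, in aged ICH vs. aged sham, Tnf −0.03 to 1.40, and, in aged sham vs. young sham, Fas −0.11 to 0.36, Relb −0.21 to 0.17, Nfkbia −0.05 to 0.20 and Tnfaip3 −0.15 to 0.13, and, in aged ICH vs. young ICH, Tnfsf12 −0.16 to 0.11, Tnfrsf1a −0.01 to 0.25, Fas −0.04 to 0.26 and Nfkbia −0.11 to 0.03, and, in the interaction, Tnf −1.12 to 0.31, Tnfrsf1b −0.50 to 0.06, Tnfrsf12a −0.44 to 0.15, Fas −0.27 to 0.20, Nfkb1 −0.08 to 0.05 and Nfkbia −0.23 to 0.01.

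The labels do not say whether same-numbered samples belong together, and the main fit did not pair them. Deviations of same-numbered samples from their group means correlated between −0.454 and 0.235. With 3 samples a group, these values cannot decide whether such samples were handled together. With a replicate block 6 members were called in young and 6 in aged mice, Tnfsf12 in young mice had an adjusted P of 0.0553, Relb in aged sham vs. young sham had a log2FC of −0.0026, and no other call of a member changed. Tnf had the fewest counts of the members, 4 to 48 per sample, and the widest spread in aged sham mice (CV 89.6%), and which of them sets its intervals was not tested.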
